A study of Mus musculus with 12 samples.

Results

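Hepatic iron regulation and the metallothioneins were followed through 10 genes chosen by symbol, of the 21705 genes listed for each liver. They were Hamp, Hfe2, Tfr2, Tfrc, Trf, Slc40a1, Fth1, Ftl1, Mt1 and Mt2. Symbols matched 9 of them, and Tfr2 was found by its gene ID (50765) under the older symbol Trfr2. Livers came from female C57BL/6J mice, 10 to 12 weeks old. Through the tail vein, 6 mice received saline, and 6 mice received LNA29, a pair of locked nucleic acid inhibitors at 20 mg/kg each, with one against miR-29a and the other against miR-29b and miR-29c. Livers were taken 7 days after dosing, following an overnight fast, and polyadenylated RNA was sequenced. The controls received saline and no control oligonucleotide, so an effect of the oligonucleotide chemistry and an effect of miR-29 inhibition cannot be told apart in this comparison.

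The liver sets iron supply for the whole body. Hepatocytes sense iron through the BMP co-receptor hemojuvelin (Hfe2) and transferrin receptor 2 (Tfr2), and answer with the hormone hepcidin (Hamp), which removes the iron exporter ferroportin (Slc40a1) from cell surfaces. Inside cells, iron regulatory proteins bind hairpins called iron-responsive elements in messages for iron uptake and storage, while metallothioneins (Mt1 and Mt2) hold zinc and copper and are induced by metals, glucocorticoids and inflammation.

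The inhibitors were directed at the miRNAs shown here, with the seed (bases 2 to 8), which pairs with target messages, in capitals. Sequences are from RefSeq (GRCm38.p6). All 3 share one seed. miR-29a lies at chr6:31062673-31062694 on the minus strand and miR-29c at chr1:195037600-195037621 on the plus strand. miR-29b is encoded at chr6:31063025-31063047 (minus) and at chr1:195037091-195037113 (plus).
miR-29a-3p: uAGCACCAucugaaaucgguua
miR-29b-3p: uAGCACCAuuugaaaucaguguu
miR-29c-3p: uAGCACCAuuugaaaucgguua
The complement of the seed, TGGTGCT, was found in the 3′ UTR of 0 of the 10 genes, on 1 principal GENCODE M21 transcript per gene. It was found in 12.2% of the 20891 genes with such a 3′ UTR. Mature miRNAs were not measured in these libraries, so the inhibition itself could not be checked here.

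A search of the same transcripts for iron-responsive elements took a C, 5 bases, the loop CAGTGN and 5 bases that pair with the first 5, with G to T pairs allowed. These elements are shown because they divide the genes by role: those in a 5′ UTR are bound to hold back translation, and those in a 3′ UTR to protect the message. The 5′ UTRs of Fth1, Ftl1 and Slc40a1 held 1 match each, as against 0.102% of all 20658 genes with a 5′ UTR. The 3′ UTR of Tfrc held 4, and 0.527% of genes had any 3′ UTR match. In the sequences, from GENCODE M21 (GRCm38), the 6 loop bases are in capitals. The Fth1 match lies at chr19:9982733-9982759 (plus), the Ftl1 match at chr7:45459780-45459806 (minus) and the Slc40a1 match at chr1:45925466-45925492 (minus). The first and the last of the Tfrc matches lie at chr16:32631220-32631246 and chr16:32631711-32631737 (plus).
Fth1, 5′ UTR: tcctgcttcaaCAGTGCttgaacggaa
Ftl1, 5′ UTR: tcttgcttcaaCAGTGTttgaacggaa
Slc40a1, 5′ UTR: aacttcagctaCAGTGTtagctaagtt
Tfrc, 3′ UTR, first: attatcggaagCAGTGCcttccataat
Tfrc, 3′ UTR, last: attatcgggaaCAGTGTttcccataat

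Values are the deposited signal: reads per gene scaled so that the upper quartile of genes with reads was about 1000 in each liver. They are levels of RNA, and these libraries do not give protein levels. A single read was worth 9.80 to 24.4 units, and depth was 8217212 to 19062479 reads in saline and 7696095 to 15079236 in LNA29 livers. Saline replicate 49 stood apart. Albumin took 35.7% of its reads, against at least 43.6% in each of the other saline livers and 44.5% to 46.8% in LNA29 livers. It had the lowest value of all 12 livers for Trf, Fth1, Ftl1, Mt1 and Mt2, and the highest for Tfrc and Slc40a1. Log2 fold changes between the groups are therefore given with and without it.

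Per 1000 bases of transcript, the genes covered a wide range of levels. The median saline level was 793879 units per 1000 bases for Trf, which encodes the iron carrier transferrin, 399816 for the ferritin light chain Ftl1 and 199621 for the ferritin heavy chain Fth1. Mt1 followed at 134295, Hamp at 61619 and Mt2 at 45912. Below these came Tfr2 at 4584, Hfe2 at 1050, Slc40a1 at 378 and the general transferrin receptor Tfrc at 15.7. Among the saline livers, the ranges of neighbours from Trf to Mt2 overlapped, whereas Mt2, Tfr2, Hfe2, Slc40a1 and Tfrc each lay wholly above the next. Lengths came from GENCODE M21, which need not be the annotation of the authors.

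**Figure D1:**
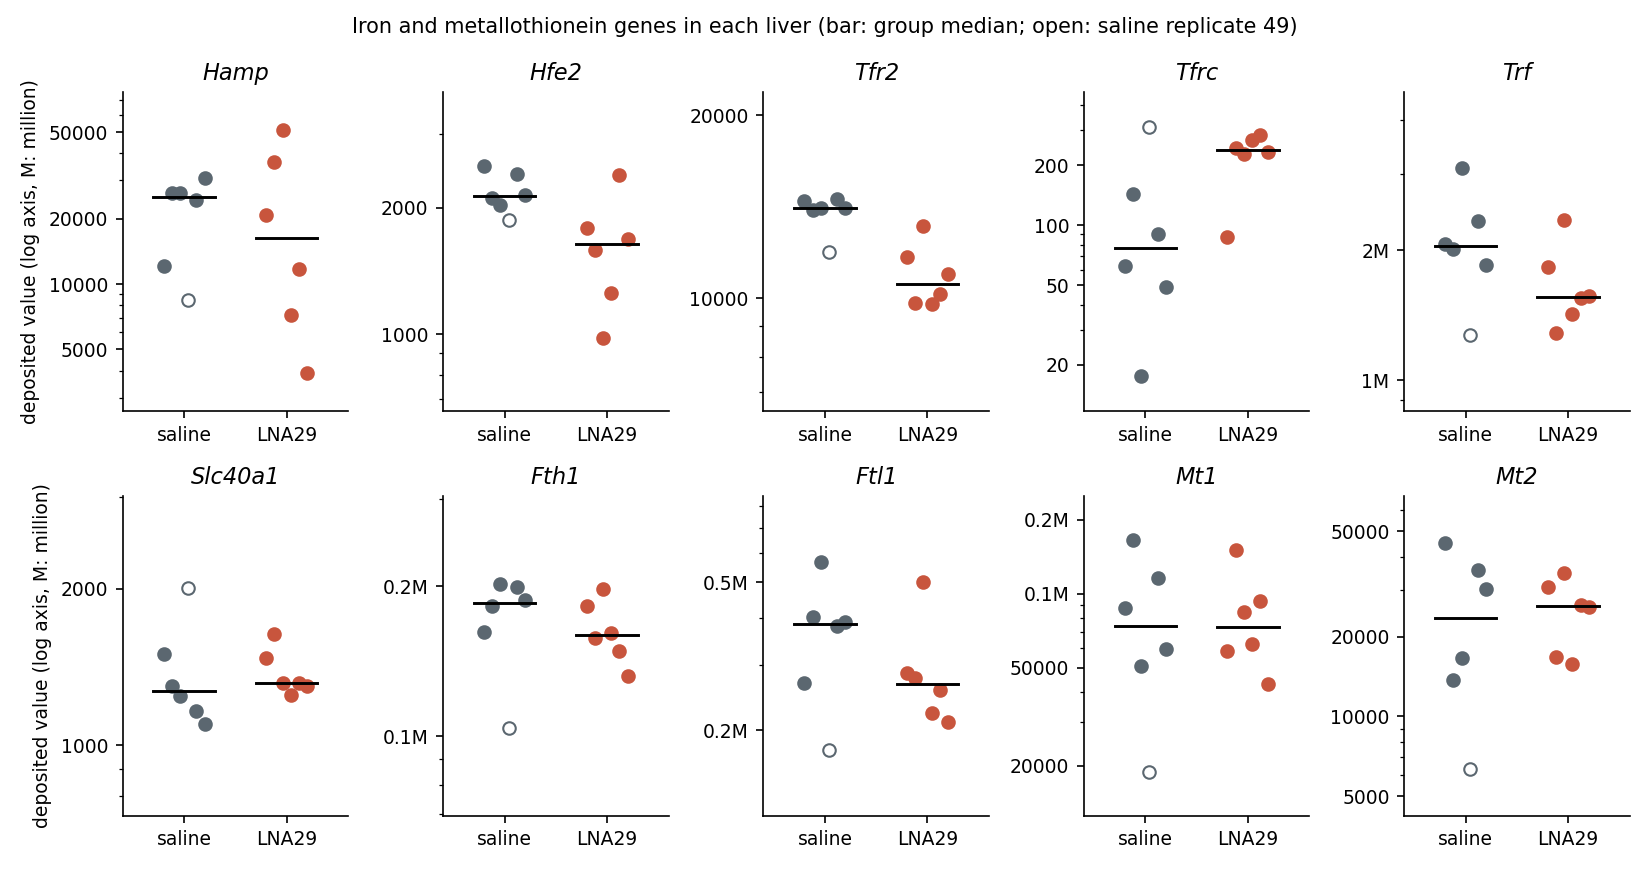
Deposited value of each gene (log axis) in each of the 6 saline and 6 LNA29 livers; each point is a liver, the bar is the group median, and the open point is saline replicate 49. Tfr2 was below the saline minimum of 11920 in 5 of 6 LNA29 livers, and Hamp covered a wider range in LNA29 livers (3890 to 51057) than in saline livers (8440 to 30831).

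Hepcidin RNA differed more between livers of a group than between the groups. Hamp values in saline livers ran from 8440 in replicate 49 through a median of 25264 to 30831 in replicate 53. In LNA29 livers they ran from 3890 in replicate 54 through a median of 16286 to 51057 in replicate 48. The LNA29 livers spread to both sides, with 2 above the highest saline liver and 2 below the lowest. The highest LNA29 value was 13.1 times the lowest, compared with 3.65 times in saline livers. The log2 fold change, taken throughout as LNA29 minus saline on log2(value + 1), was -0.34 (SE 0.51, 95% interval -1.41 to 0.73; adjusted p = 0.926 by limma; exact permutation p = 0.608). It was -0.58 without saline replicate 49 and 0.052 without LNA29 replicate 54.

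The iron sensors that act upstream of hepcidin were lower in most LNA29 livers, short of significance over all genes. Tfr2, which binds transferrin carrying iron, had values of 11920, 14083 and 14566 in saline livers (lowest, median and highest) and 9768, 10557 and 13151 in LNA29 livers. All 6 LNA29 livers were below the saline median and 5 were below every saline liver; replicate 48 was the exception, and it exceeded saline replicate 49 only. The log2 fold change was -0.35 (SE 0.12, 95% interval -0.60 to -0.09; adjusted p = 0.413 by limma). The two-sided exact permutation test gave p = 0.00433, and between 0.00433 and 0.0108 with any single liver left out. Without saline replicate 49 the log2 fold change was -0.39. It was -0.30 with livers shifted to a common median, and -0.25 with a trimmed mean shift added after seeing the data.

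Hfe2, the co-receptor for BMP ligands, had values of 1870, 2129 and 2516 in saline livers and 981, 1635 and 2396 in LNA29 livers. Again 5 of 6 LNA29 livers were below every saline liver, and replicate 52, at 2396, lay among the high saline values. The lowest value, 981, was in LNA29 replicate 48, the liver with the highest Hamp. The log2 fold change was -0.48 (SE 0.18, 95% interval -0.87 to -0.09; adjusted p = 0.483 by limma; exact permutation p = 0.0238). The permutation p was 0.0606 without saline replicate 43 and 0.0563 without saline replicate 51, and the log2 fold change was -0.52 without saline replicate 49. Shifting livers to a common median gave -0.44, and the trimmed mean shift gave -0.39. In whole liver, fewer cells of a type and less RNA per cell cannot be told apart, which applies to these and all further differences.

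Tfrc, the receptor through which most cells take up transferrin, was the least abundant of the 10 genes per length and was higher in most LNA29 livers. Its saline values were 17.5, 76.7 and 310, and its LNA29 values were 87.5, 238 and 283. All 6 LNA29 livers were above the saline median, yet none exceeded saline replicate 49, which at 310 was the highest of the 12. Few reads lay behind these values, 1 to 31 per liver. The ratio of mean values was 1.99, and the log2 fold change was 1.42 (SE 0.54, 95% interval 0.29 to 2.55; adjusted p = 0.471 by limma; exact permutation p = 0.0411). Shifting livers to a common median gave 1.46, and the trimmed mean shift gave 1.51. Leaving out saline replicate 49 gave a log2 fold change of 1.81 (exact permutation p = 0.00866), and leaving out saline replicate 47 gave 1.0 (exact permutation p = 0.0823). With 1 liver left out, the permutation p stayed under 0.05 for saline 45, saline 49 and LNA29 44, and it was between 0.0584 and 0.0823 for each of the other 9 livers.

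Trf values were 1271240, 2041060 and 3097350 in saline livers and 1289660, 1557000 and 2348640 in LNA29 livers. The ranges overlapped almost wholly, although 5 of 6 LNA29 livers were below the saline median. The log2 fold change was -0.32 (SE 0.46, 95% interval -1.28 to 0.65; adjusted p = 0.926 by limma; exact permutation p = 0.165). With saline replicate 49 left out it was -0.45, and the exact permutation p was 0.0303, the only 1 under 0.05 of the 12 with a liver left out. It was -0.19 without saline replicate 47 (exact permutation p = 0.333).

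The message for ferroportin, the only known cellular iron exporter, had nearly equal levels in both groups. Slc40a1 values were 1098, 1274 and 2010 in saline livers and 1250, 1321 and 1634 in LNA29 livers. The LNA29 range fell inside the saline range, which was widened by replicate 49 at its top. The log2 fold change was 0.02 (SE 0.16, 95% interval -0.31 to 0.36; adjusted p = 0.986 by limma), and 0.14 without saline replicate 49.

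Messages for the ferritin chains, which together form the iron storage shell, differed little between the groups beside their spread. Fth1 values were 104060, 185448 and 202175 in saline livers and 132233, 159436 and 197302 in LNA29 livers. Ftl1 values were 177040, 387022 and 567474 in saline livers and 210849, 266369 and 502019 in LNA29 livers. For both chains every LNA29 value lay inside the saline range, and 5 of 6 LNA29 livers were below the saline median. The log2 fold changes were -0.06 for Fth1 (95% interval -0.52 to 0.39; 0.035 with each liver shifted by a trimmed mean) and -0.29 for Ftl1 (95% interval -0.95 to 0.36), with adjusted p of 0.975 and 0.878 by limma. Without saline replicate 49 they were -0.20 and -0.48, and without saline replicate 47 they were -0.010 and -0.15. Levels of Ftl1 are uncertain, because its close copy Ftl2 and ferritin pseudogenes can share its reads; Ftl1 stood at 1.18 to 1.57 times Ftl2 in the 12 livers.

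Metallothioneins varied between mice within each group. Mt1 values were 18790, 73728 and 166365 in saline livers and 42973, 73589 and 151024 in LNA29 livers, and Mt2 values were 6330, 23461 and 45234 and 15804, 26105 and 34679. The medians of Mt1 were almost the same, and for both genes every LNA29 liver lay inside the saline range. The log2 fold change was 0.16 for Mt1 (SE 0.42, 95% interval -0.71 to 1.04) and 0.24 for Mt2 (SE 0.37, 95% interval -0.55 to 1.03), with adjusted p of 0.964 and 0.928 by limma. Both changed sign, to -0.21 and -0.10, without saline replicate 49, which held the lowest value of each gene.

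**Figure D2:**
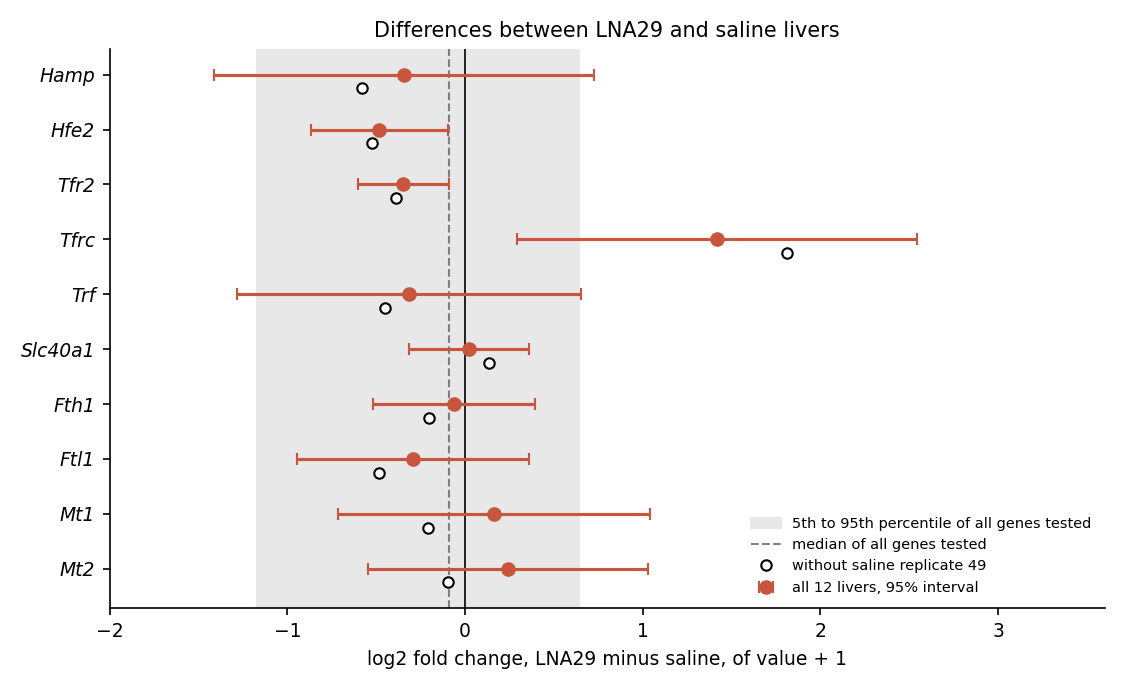
Log2 fold change of each gene, LNA29 minus saline, on log2(value + 1): filled points with 95% limma intervals use all 12 livers, and open points leave out saline replicate 49. The grey band runs from -1.17 to 0.64, the 5th to the 95th percentile of all genes tested, and the dashed line is their median of -0.09. The intervals of Hfe2, Tfr2 and Tfrc leave out 0.

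Across the transcriptome, all 10 genes had a mean value of at least 10 and entered the limma fit, and 0 of them had an adjusted p under 0.05, compared with 20 (0.16%) of the 12486 genes tested. At an unadjusted limma p under 0.05 there were 3 of 10 (Hfe2 and Tfr2 lower, Tfrc higher), and 7.91% of all genes tested (745 lower, 243 higher). The same 3 had an exact permutation p under 0.05, against 8.5% of genes. Groups that did not overlap were seen for 0 of 10 genes and for 0.985% of genes tested. By the thresholds of the study, a ratio of means of at least 1.5 in either direction with a one-tailed unadjusted p of at most 0.05, 1 of 10 genes (Tfrc) passed, and so did 4.07% of all 21705 genes. Of the 10 log2 fold changes 6 were negative, with a median of -0.18 beside -0.09 for all genes tested. Without saline replicate 49, 8 were negative, with a median of -0.30 beside -0.08.

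Pairs of genes were compared within each group, as 8 relations. Mt1 and Mt2 are neighbours on chromosome 8, yet their ratio was uneven: Mt1 was 12.1 times Mt2 in saline replicate 45 and 9.01 times in LNA29 replicate 46, and between 1.66 and 3.96 times in the other livers. Over 6 saline livers Pearson's r was 0.60 (exact permutation p = 0.219, adjusted p = 0.293) and Spearman's rho 0.37 (exact permutation p = 0.497, adjusted p = 0.644). Over 6 LNA29 livers r was -0.31 (exact permutation p = 0.539, adjusted p = 0.539) and rho -0.09 (exact permutation p = 0.919, adjusted p = 0.919). Without the 2 livers farthest from the Mt1 median, r was 0.77 in saline and 0.36 in LNA29 livers. The sequences of these genes are similar, so the split of reads between them is uncertain.

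Fth1 and Ftl1 had the highest Pearson's r of the 4 pairs within each group. In saline livers r was 0.93 (exact permutation p = 0.00833, adjusted p = 0.0639) and rho 0.77 (exact permutation p = 0.103, adjusted p = 0.274). In LNA29 livers r was 0.83 (exact permutation p = 0.0319, adjusted p = 0.0639) and rho 0.83 (exact permutation p = 0.0583, adjusted p = 0.233). After leaving out the 2 livers farthest from the Fth1 median (saline 49 and 43, and LNA29 48 and 54), r was 0.56 and 0.41. Leaving out the farthest livers narrows the range of values, which lowers r for a true relation as well. The fall therefore cannot show whether the relations rest on those livers.

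Hamp was set beside its copy Hamp2 and beside Id1, a gene that BMP signalling also induces. For Hamp and Hamp2, r was 0.91 in saline livers (exact permutation p = 0.0167, adjusted p = 0.0639) with rho 0.60 (exact permutation p = 0.242, adjusted p = 0.483). In LNA29 livers r was 0.78 (exact permutation p = 0.0597, adjusted p = 0.0956) with rho 0.83 (exact permutation p = 0.0583, adjusted p = 0.233). With the 2 livers farthest from the Hamp median left out, r was 0.21 and 0.39, again over a narrower range of values. Hamp stood at 1.71 to 3.90 times Hamp2 in 10 livers, and at 7.52 and 8.12 times in LNA29 replicates 44 and 46; the copies may exchange reads, so these ratios are uncertain. With Id1, r was 0.89 in saline livers (exact permutation p = 0.0306, adjusted p = 0.0639; rho 0.49, exact permutation p = 0.356, adjusted p = 0.569). It was 0.45 in LNA29 livers (exact permutation p = 0.383, adjusted p = 0.438; rho 0.31, exact permutation p = 0.564, adjusted p = 0.644). Without the 2 livers farthest from the Hamp median, r was -0.55 in saline and -0.35 in LNA29 livers. No relation of the 8 reached an adjusted p under 0.05.

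**Figure D3:**
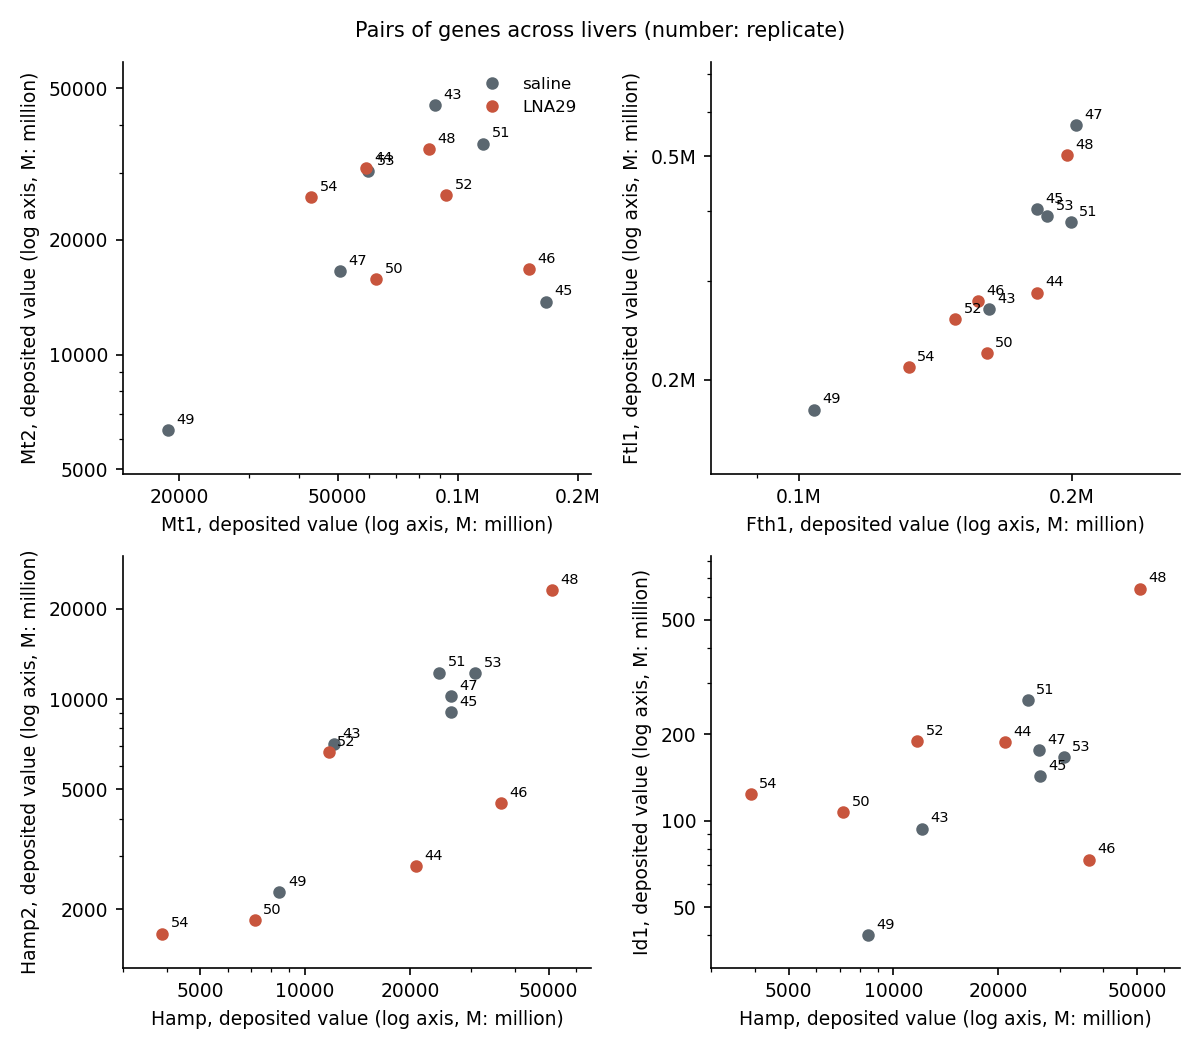
Deposited values of 4 gene pairs (both axes log) in 12 livers, grey for saline and red for LNA29, with replicate numbers. Saline replicate 49 had the lowest saline value on both axes of each plot, and saline 45 and LNA29 46 lie apart from the other livers in the plot of Mt1 and Mt2.

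The upstream sequences of Hamp and Hamp2 are shown because these copies were compared above, where their relation did not reach an adjusted p under 0.05. Each stretch is the 250 bases before the start of transcription in RefSeq (GRCm38.p6, minus strand), at chr7:30944030-30944279 for Hamp and chr7:30924182-30924431 for Hamp2. RefSeq promoters were matched for 7 of the 10 genes. Capitals mark GGCGCC, a core letter string of BMP response elements, and TTCNNNGAA, a string bound by STAT factors, each searched on both strands.
Hamp: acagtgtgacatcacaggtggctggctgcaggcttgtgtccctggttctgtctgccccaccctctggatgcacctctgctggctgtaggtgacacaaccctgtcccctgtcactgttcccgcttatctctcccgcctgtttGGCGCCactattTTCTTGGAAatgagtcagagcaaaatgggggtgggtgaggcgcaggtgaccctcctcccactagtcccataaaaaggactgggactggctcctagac
Hamp2: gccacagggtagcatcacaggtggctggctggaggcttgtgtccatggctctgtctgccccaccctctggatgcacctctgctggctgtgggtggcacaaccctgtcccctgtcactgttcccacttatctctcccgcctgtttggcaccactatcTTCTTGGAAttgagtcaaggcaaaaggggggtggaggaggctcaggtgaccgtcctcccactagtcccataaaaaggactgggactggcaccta
GGCGCC matched once in the Hamp stretch, 109 bases before the start, and was not matched in that of Hamp2; 9.59% of all 32851 promoter stretches of this length held it. TTCNNNGAA matched once in each, 97 and 94 bases before the start, and 7.02% of stretches held it. A match is a string of letters, and binding was not measured.

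Other genes of hepcidin control had no adjusted p under 0.05 by limma, and Atoh8 alone, of 19 tested, was under 0.05 before adjustment. Their log2 fold changes had a median of -0.10, and of -0.03 with saline replicate 49 left out. Hamp2 had values of 2280, 9643 and 12240 in saline livers and 1658, 3634 and 23057 in LNA29 livers (log2 fold change -0.88, adjusted p = 0.747 by limma, exact permutation p = 0.234, and -1.23 without saline replicate 49, with a range of -1.36 to -0.60 over single livers left out). Atoh8, a transcription factor of the BMP response, ran from 670 through 1553 to 2314 in saline and from 679 through 833 to 1340 in LNA29 livers, with a log2 fold change of -0.58 (adjusted p = 0.611 by limma, exact permutation p = 0.0931). It was -0.79 without saline replicate 49 (adjusted p = 0.248 by limma, exact permutation p = 0.0173), and ranged from -0.79 to -0.43 with single livers left out. Id1 and Smad7, which follow BMP signalling, had log2 fold changes of 0.40 and 0.38 with 3 to 34 and 4 to 47 reads, or 0.071 and 0.61 without saline replicate 49. With single livers left out they ranged from 0.013 to 0.64 and from 0.066 to 0.61. Those of the ligand Bmp6, the hemojuvelin protease Tmprss6 and the haemochromatosis gene Hfe were -1.0, -0.18 and -0.34, or -0.73, -0.20 and -0.33 without that liver. Over single livers left out, Hfe ranged from -0.46 to -0.16. Bmp6 had at most 25 reads in any liver, and its median was 124 in saline and 118 in LNA29 livers. Without LNA29 replicate 46, which had 0 reads, its log2 fold change was -0.086.

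Iron transport and storage genes outside the 10 had a median log2 fold change of -0.09 (-0.06 without saline replicate 49), with 0 of 15 called by limma after adjustment and 1 at an unadjusted p under 0.05. That gene was Lrp1, a scavenger receptor that takes up haem bound to hemopexin among many ligands. Its values were 12270, 16533 and 19891 in saline livers and 10171, 11448 and 14472 in LNA29 livers, and 5 of 6 LNA29 livers were below every saline liver (log2 fold change -0.45, SE 0.14, adjusted p = 0.315 by limma; exact permutation p = 0.00866). Without saline replicate 49 it was -0.42. The ferroxidase Cp, the importers Slc39a14 and Slc11a2 and the ferrireductase Steap3 had log2 fold changes between -0.08 and 0.09, and between -0.06 and 0.23 without that liver. The iron sensing list held Aco1, Ireb2 and Fbxl5, and its other tested genes, Hif1a among them, belong to oxygen sensing. In this mixed list 0 of 7 had an unadjusted p under 0.05 by limma. The median log2 fold change was -0.24, or -0.18 without saline replicate 49. All 7 were negative, from -0.55 (an oxygen-sensing gene) to -0.02. Without that liver 5 of 7 were, with Ireb2 at 0.19 and Hif1a, named after its values were seen, at 0.10. Both were also positive after a trimmed mean shift, and Ireb2 after a shift to a common median. The iron regulatory protein Aco1 was at -0.24 (-0.18 without that liver), its relative Ireb2 at -0.02, and the iron-binding ubiquitin ligase subunit Fbxl5 at -0.38 (-0.28). In haem and haemoglobin scavenging, 0 of 9 genes had an unadjusted p under 0.05 by limma, and haem oxygenase Hmox1 had a log2 fold change of 0.44 (adjusted p = 0.805 by limma, exact permutation p = 0.29, and 0.47 without saline replicate 49, with a range of 0.23 to 0.64 over single livers left out). The list median was -0.06, or -0.04 without that liver.

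Zinc and copper handling genes surround the metallothioneins in metal metabolism. Of the 21 tested, 0 were called by limma after adjustment, and 1 had an unadjusted p under 0.05. It was the zinc importer Slc39a4 (log2 fold change -0.35, adjusted p = 0.567 by limma, exact permutation p = 0.0325, and -0.39 without saline replicate 49). With single livers left out, its exact permutation p was 0.00433 to 0.0671, and under 0.05 in 6 of 12 cases. The list median was -0.09, or -0.10 without saline replicate 49. Mtf1, the metal-sensing factor that induces metallothioneins, and the zinc exporter Slc30a1, which it also induces, had log2 fold changes of -0.16 and -0.04, or -0.11 and -0.05 without it. Of 10 glucocorticoid targets 8 had a positive log2 fold change, with a list median of 0.25 (0.24 without saline replicate 49), and 1 had an unadjusted p under 0.05 by limma. That was Lcn2, also an acute-phase gene, at -1.33 (adjusted p = 0.536 by limma, exact permutation p = 0.0974). Without saline replicate 49, Lcn2 was at -1.93 and had an adjusted p of 0.036 by limma (exact permutation p = 0.00216, the smallest possible with 6 against 5 livers). With single livers left out, it ranged from -1.93 to -0.97, with an adjusted p by limma of 0.036 to 0.765. In the IL-6 and STAT3 list 2 of 15 genes had an unadjusted p under 0.05, the acute-phase genes Orm1 (-0.74, adjusted p = 0.513 by limma, exact permutation p = 0.0714) and Orm2 (-0.89, adjusted p = 0.405 by limma, exact permutation p = 0.0411), and the median was -0.14. Without that liver Orm1 was at -1.03 (adjusted p = 0.0572 by limma, exact permutation p = 0.00649), Orm2 at -1.08 (adjusted p = 0.212 by limma, exact permutation p = 0.0216) and the median at -0.15. With single livers left out, Orm1 ranged from -1.03 to -0.56 and Orm2 from -1.08 to -0.71. Their adjusted p by limma was then 0.0572 to 0.747 and 0.209 to 0.661. The exact permutation p was 0.00649 to 0.147 for Orm1, under 0.05 in 1 of the 12 cases. For Orm2 it was 0.0216 to 0.0844, under 0.05 in 3 of 12. With all 12 livers, neither list had a gene with an adjusted p under 0.05.

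**Figure D4:**
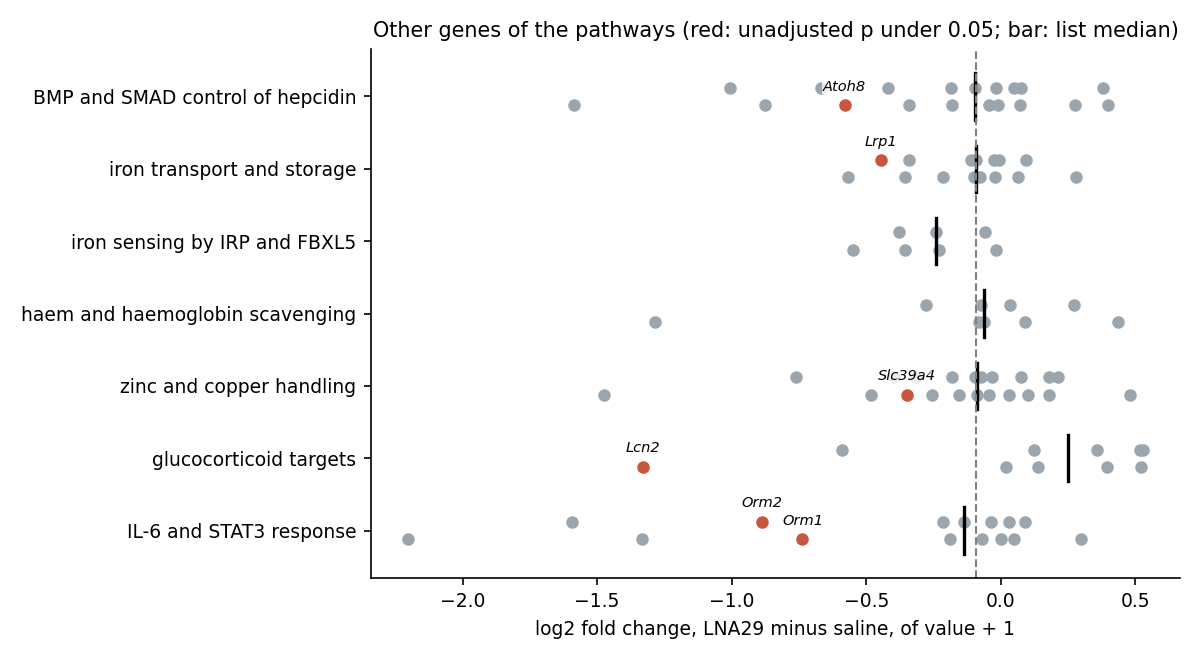
Log2 fold change, LNA29 minus saline, on log2(value + 1), of the tested genes in 7 lists of related pathways: each point is a gene, red where its unadjusted limma p was under 0.05, the bar is the list median and the dashed line the median of all genes tested (-0.09). List medians ran from -0.24 for the iron sensing list, which includes oxygen-sensing genes, to 0.25 for glucocorticoid targets, and 6 points are red.

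Markers of liver cell types were read in the same fit, and their part in the differences of Tfr2, Hfe2 and Tfrc was not tested. The hepatocyte list (8 genes) was led by Alb, and 0 of 8 had an unadjusted p under 0.05 by limma. Of these, 6 of 8 had a positive log2 fold change (median 0.14), and 3 of 8 without saline replicate 49 (median -0.08). The intensity trend widened the error of Alb most (SE 2.73, and 0.26 in a fit without the trend that was added after seeing the data), while those of some other genes on the list were narrower with the trend. By exact permutation 1 of 8 was under 0.05. It was Apob, named after its values were seen, which was among the 2 that were lower, with a log2 fold change of -0.31 (exact permutation p = 0.0476), or -0.42 without saline replicate 49 (exact permutation p = 0.00216). With single livers left out, its exact permutation p was 0.00216 to 0.0931. The summed value of the list was 32994500 in saline replicate 49 and 76020000 to 111584000 in the other saline livers, compared with 80919200 to 96088300 in LNA29 livers. The 9 sinusoidal endothelial markers, led by Gpr182, summed to 8222, 8611 and 9354 in saline livers (lowest, median and highest) and 6684, 7764 and 8507 in LNA29 livers. Of the 9, 7 were lower. Their median log2 fold change was -0.22, or -0.08 without saline replicate 49, beside -0.09 and -0.08 for all genes tested. Stab1 (log2 fold change -0.34, or -0.36 without saline replicate 49, exact permutation p = 0.0108 with all livers) had an unadjusted p under 0.05. The difference of the log2 sums had an exact permutation p of 0.0152, the lowest among the sums given here, with 0.628 to 0.974 for the others. Tfr2 and Hfe2 were lower too, and a link was not tested. The 10 Kupffer cell markers, led by Clec4f, summed to 11969, 15542 and 18263 in saline livers and 10375, 13854 and 21781 in LNA29 livers. Of the 10, 8 were lower, and 9 without saline replicate 49 (median log2 fold change -0.16 and -0.24). Against that direction, Marco alone had an unadjusted p under 0.05 (log2 fold change 1.08, or 1.0 without saline replicate 49, exact permutation p = 0.0368 with all livers). Its exact permutation p was 0.0649 without saline replicate 49. Over single livers left out it was 0.0108 to 0.0671, and under 0.05 in 8 of 12 cases.

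Red cell precursors also carry much Tfrc. The 6 blood and erythroid markers in the table, led by Hba-a2, summed to 36523, 60576 and 154163 in saline livers and 37281, 70392 and 171275 in LNA29 livers, so their ranges nearly coincided. Hba-a2, which made up most of these sums, had a log2 fold change of -0.02. Of the 4 tested markers 3 were higher, in the direction of Tfrc, with a median of 0.26 (0.30 without saline replicate 49). The erythroid membrane genes Slc4a1 and Epb4.2 each had no reads in some livers, and 0 of 4 tested markers had an unadjusted p under 0.05 by limma. The 6 cholangiocyte markers, led by Spp1, summed to 603, 699 and 906 and to 439, 760 and 1170, with 0 of 6 at an unadjusted p under 0.05 and no reads for Krt7, Epcam or Tff3 in some livers. Of these 6, 4 were higher (median log2 fold change 0.17), and 3 without saline replicate 49 (median -0.03).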

How the data were processed

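Single reads of liver polyadenylated RNA were mapped with MapSplice2 by the authors, who estimated reads per gene with RSEM; versions and annotation are not given in the sources used here, and the submitters' processing notes name mm9 and RSEM. The deposited signal of each liver was scaled by the authors to an upper quartile of about 1000 over genes with reads, and genes without reads were set to 1. A single read had a fixed worth in each liver, and 92.0% to 93.6% of values divided by it were whole (within 0.02), which gave the reads behind a value; depth was 7696095 to 19062479 reads per liver. The table also holds the authors' group means, fold changes and p-values, which were not used, and 2 unnamed columns with values that were not used either.

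Genes with a mean value of 10 or more (12486) were tested with limma 3.58.1 (R 4.3.3) on log2(value + 1), with an intensity trend and Benjamini-Hochberg adjustment, comparing 6 LNA29 with 6 saline livers without covariates. On this scale the added 1 shrinks the change of low genes, while a liver with few or no reads can enlarge it beyond the ratio of means, which for Tfrc was 1.99 beside a fold of 2.67. Single genes were also tested by exact permutation, two-sided, over the 924 ways to divide 12 livers into 6 and 6, for which 0.00216 is the smallest possible p (numpy 2.4.6, scipy 1.17.1, pandas 2.3.3, Python 3.11.15; figures with matplotlib 3.10.9). Both were tested on simulated data. The 10 genes and all lists were chosen with earlier results of these data known. Genes named were the 10, 16 genes of their regulation whatever their values, up to 6 genes per list with an unadjusted limma p under 0.05, and for each marker list its most abundant gene and markers without reads, as well as Hif1a and Apob, chosen after their values were seen; some marker results are not reported here. Id1, Smad7 and other low genes carry the counting error of few reads. For UTRs and lengths 1 principal GENCODE M21 transcript per gene was used. Alternatives were another pseudocount, filter, scaling or moderation, array weights, and leaving out each liver.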

Additional observations from a re-analysis of the deposited data

Results flagged for a closer look

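Of 52 groups of 6 livers examined, for the 10 genes and 16 genes of their regulation, 6 held a liver set far from the others. Chance alone gives about 1 in 20 for independent groups. All genes were read in the same 12 livers, so the groups are not independent and the count cannot be set against that rate. Values here are log2(value + 1). Saline replicate 49 was low for Tfr2 at 13.54 (other saline livers 13.77 to 13.83), for Fth1 at 16.67 (17.30 to 17.63) and for Hamp2 at 11.16 (12.79 to 13.58). LNA29 replicate 48 was high for Ftl1 at 18.94 (other LNA29 livers 17.69 to 18.13) and low for Aco1 at 10.94 (11.37 to 11.55). LNA29 replicate 44 was low for Tfrc at 6.47 (7.83 to 8.15).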

How the results depend on the processing

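In limma fits under 21 alternatives, 0 of the 10 genes had an adjusted p under 0.05, with the lowest at 0.116; by the thresholds of the study 1 gene passed. The count over all genes was 20, and it was 10 with livers shifted to a common median, 58 with array weights, 6 without the intensity trend (added after seeing the data) and 1 to 29 with single livers left out: 1 without saline 43, LNA29 50 or LNA29 54, 3 without saline 51, 7 without saline 53, 9 without LNA29 46, 10 without LNA29 52 and 11 without saline 47. The causes were not tested. Of 210 log2 fold changes, 199 kept their direction and 11 changed sign. Hamp was 0.052 without LNA29 54 (range -0.69 to 0.052 with single livers left out) and -0.91 with array weights. Slc40a1 ranged from -0.039 to 0.14, and was -0.0024 without saline 47, -0.023 without saline 51, -0.039 without saline 53 and -0.027 without LNA29 46. Fth1 was 0.035 with a trimmed mean shift, added after seeing the data. Mt1 was -0.25 with array weights and -0.21 to 0.42 with single livers left out, including -0.21 without saline 49 and -0.037 without LNA29 46. Mt2 was -0.11 with array weights and -0.097 to 0.47 with single livers left out, the lowest without saline 49. Without the intensity trend the SE of Trf was 0.22 in place of 0.46 (adjusted p = 0.805 by limma; 0.754 to 0.967 over its alternatives). The median of all genes tested was -0.09, or -0.05 after the common-median shift and 0.0037 after the trimmed mean shift. No paired analysis was possible because the groups share no replicate numbers. The deposited values are scaled RSEM estimates, and 92.0% to 93.6% of them, not all, were whole after division by the worth of 1 read. Tests on counts and their scaling were therefore not run. For Tfrc, Bmp6 and Id1, few reads limit precision.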
